A study of Homo sapiens with 18 samples.

Results

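The transcripts of the mitochondrial genome were taken from the table of the whole series as every row placed on chromosome MT, which gave 15 of 145326 transcripts. They were 13 protein coding mRNAs and 2 ribosomal RNAs (rRNAs), MT-RNR1 and MT-RNR2, and each stood for 1 gene, while all rows together summed to 32580 genes. The mitochondrial genome holds 37 genes in GENCODE 29, and the other 22 are tRNA genes of 59 to 75 nt, for which the table has 0 rows.

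The 18 samples came from the established human cell lines U87 mg (glioblastoma) and DAOY (medulloblastoma), both grown as spheroidal aggregates in Matrigel. After 24 h in an electrotaxis channel, the aggregates received a direct-current electric field (dcEF) of 250 V/m for 0 h (the controls), 2 h or 8 h, with 3 samples for each line and time. Every sample pooled 3 channels, the labels say that aggregates started from different numbers of cells were mixed whereas the methods for sequencing give a single number, and the methods state that the replicates with the best quality results were chosen. No group here stayed in the channel for a further 2 h or 8 h with the field off, and an effect of the field therefore cannot be told apart from one of time. The libraries were prepared from RNA selected by its poly-A tail.

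Human mitochondrial DNA is transcribed from both strands into long precursors, from which the tRNAs are cut out so that the mRNAs and rRNAs between them are released. The mRNAs encode core subunits of the respiratory chain and of ATP synthase, and the rRNAs belong to the mitochondrial ribosome that translates them. All the enzymes that transcribe, process and degrade these RNAs, and most subunits of the same complexes, are encoded in the nucleus.

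The endings of mitochondrial mRNAs are unusual, and in 6 of the 13 coding members the annotated length was not a multiple of 3, because the stop codon is completed only by the poly-A tail that the library preparation also selects for. The last 24 bases of the 5 mRNAs that differed between the lines in at least 1 comparison are shown 5′ to 3′ on the coding strand (GENCODE 29, GRCh38, whose build name the labels share), with the stop codon or the part of it that is encoded in capitals.
MT-ND1: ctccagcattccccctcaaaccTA
MT-CO2: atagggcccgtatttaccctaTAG
MT-CO3: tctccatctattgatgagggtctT
MT-ND3: aaaaaggattagactgaaccgaaT
MT-CYB: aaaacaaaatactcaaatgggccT
Only MT-CO2 among these 5 carries a whole stop codon. MT-ND1 lies at MT:3307-4262, MT-CO2 at MT:7586-8269, MT-CO3 at MT:9207-9990, MT-ND3 at MT:10059-10404 and MT-CYB at MT:14747-15887, all on the plus strand and each a single exon.

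Some members share bases with each other, and a read inside such a stretch fits both. MT-ATP8 and MT-ATP6 overlap by 46 nt at MT:8527-8572, and MT-ND4L and MT-ND4 by 7 nt at MT:10760-10766. The shared bases are shown because the values of these pairs are compared below, with the start codon of the downstream gene and the stop codon of the upstream gene in capitals.
MT-ATP8 and MT-ATP6: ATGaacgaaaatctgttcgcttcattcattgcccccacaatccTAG
MT-ND4L and MT-ND4: ATGcTAA
MT-ND6 (MT:14149-14673) is the only member on the minus strand. Whether the strand of the reads was used in counting is not given in the sources used here, so reads from MT-ND6 and from RNA antisense to it cannot be told apart.

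The estimated counts summed to between 8341976 and 15610886 per sample, and 0 of 153 pairs of samples held identical counts. Of the markers for the labelled cell types, CD44 lay at 2565 to 3547 TPM (a level scaled to the library total and corrected for transcript length) in U87 mg and CHI3L1 at 76.3 to 156 TPM, whereas S100B and SOX2 did not exceed 0.173 TPM and GFAP 3.11 TPM. In DAOY CD44 lay at 885 to 1533 TPM and CHI3L1 at 2.35 to 15.3 TPM. DAOY had ZIC1 at 8.28 to 15.8 TPM and ZIC2 at 6.86 to 20.9 TPM, ranges that overlapped those of U87 mg (2.53 to 12 and 4.02 to 9.68 TPM), and SOX2 at 2.93 to 6.92 TPM. GLI2 was lower in DAOY (0.817 to 1.81 TPM) than in U87 mg (2.203 to 5.03 TPM), ATOH1 and BARHL1 were listed at 0 in all 9 DAOY samples and NEUROD1 did not exceed 0.176 TPM. The blood marker HBB was listed at 0 in all 18 samples and PTPRC did not exceed 0.663 TPM.

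The library of DAOY 0 h replicate 0 stood apart in the fragment length with which it was quantified. The ratio of an estimated count to its TPM rises linearly with transcript length, and the line through 8314 to 11326 mRNAs of 1000 to 5000 nt per library crosses zero at the mean fragment length that Kallisto used. It was 255.95 nt in that library and between 138 and 163 nt in the other 17. Of 8 abundant transcripts shorter than 257 nt, 6 had a count of 0 there, against 0 to 2 in any other library. Results on the short members MT-ATP8 (207 nt), MT-ND4L (297 nt) and MT-ND3 (346 nt) that moved without it are therefore also given without it.

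The 15 members took between 2.83% and 8.44% of a library's counts. In U87 mg the share was 4.51% ± 0.525 (SD, n = 3) at 0 h, 3.76% ± 0.380 at 2 h and 4.58% ± 1.53 at 8 h. In DAOY it was 4.74% ± 1.58 at 0 h, 4.79% ± 0.810 at 2 h and 6.81% ± 1.41 at 8 h. The wide spread came from single libraries, since U87 mg 8 h replicate 1 had 2.83% beside 5.63% and 5.28% in its group, and DAOY 0 h replicate 2 had 2.92% beside 5.70% and 5.59%. Per length, on the TPM scale, the members held 6.03% to 11.02% of the total in U87 mg and 6.41% to 18.1% in DAOY.

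**Figure D1:**
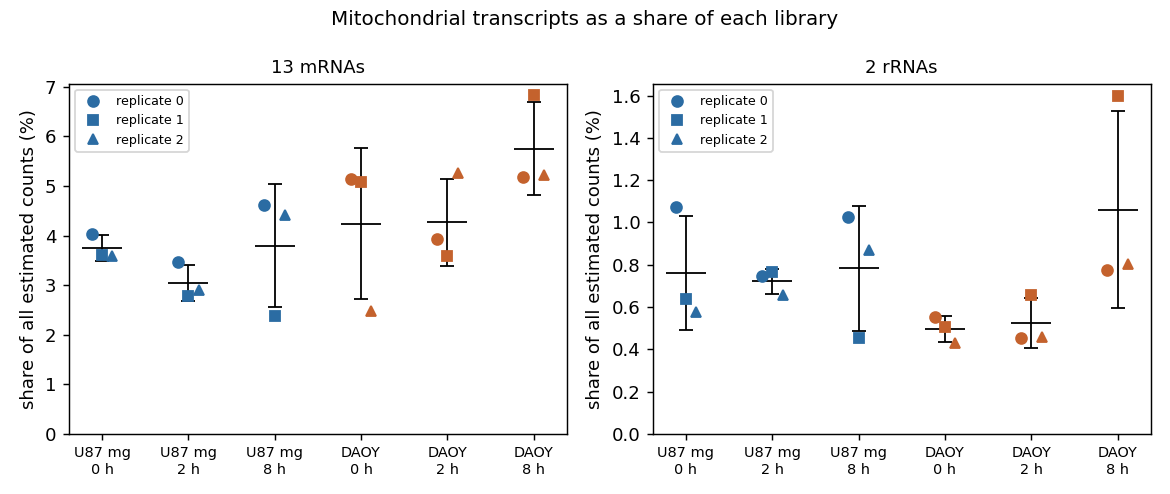
Share of all estimated counts (%) taken by the 13 mitochondrial mRNAs (left) and the 2 mitochondrial rRNAs (right) in each sample, with the mean and SD of the 3 replicates of each group. In both panels DAOY 8 h lies above DAOY 0 h without overlap, and DAOY 8 h replicate 1 is the highest sample for mRNAs (6.84%) and for rRNAs (1.60%).

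All 3 DAOY samples at 8 h (5.97%, 8.44% and 6.03%) lay above all 3 at 0 h (5.70%, 5.59% and 2.92%). The difference in means was 2.08 percentage points (exact permutation test, two-sided, n = 3 per group, p = 0.10, the smallest p that 3 against 3 allows). At 2 h in DAOY the share differed from 0 h by 0.0533 points (exact permutation p = 0.80). In U87 mg the difference was -0.743 points at 2 h (exact permutation p = 0.20) and 0.0718 points at 8 h (exact permutation p = 0.90). The 8 h difference in DAOY exceeded that in U87 mg by 2.01 points, which did not pass a permutation of the time labels within each line (exact p = 0.255, 400 permutations), and the same test at 2 h gave 0.797 points (exact p = 0.43).

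Over all times, DAOY had the larger mitochondrial share, 5.45% ± 1.53 (SD, n = 9) against 4.28% ± 0.918 in U87 mg, a difference of 1.16 points (exact permutation test with line labels exchanged within each time, two-sided, p = 0.046). The samples of the lines overlapped. The mean shares in DAOY and U87 mg were 4.74% and 4.51% at 0 h, 4.79% and 3.765% at 2 h, and 6.81% and 4.58% at 8 h. The p stayed under 0.05 only when the sample left out was DAOY 0 h replicate 2, DAOY 2 h replicate 1, or replicate 0 of U87 mg at 0 h, 2 h or 8 h, and without any other single sample it lay between 0.0505 and 0.106. For the 13 mRNAs alone the shares were 4.75% ± 1.25 and 3.53% ± 0.752 (exact permutation p = 0.0165, n = 9 per line), and for the 2 rRNAs alone they were 0.693% ± 0.367 in DAOY and 0.755% ± 0.205 in U87 mg (exact permutation p = 0.658). The rRNAs made up 12.5% ± 3.55 of the mitochondrial counts in DAOY and 17.6% ± 2.58 in U87 mg (exact permutation p = 0.005, n = 9 per line). With poly-A selection these values also depend on how well rRNAs and mRNAs were captured, which was not tested.

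Measures of RNA composition moved with some of these groups. MALAT1 and NEAT1, long RNAs retained in the nucleus, together took 0.0755% ± 0.0140 of the counts in U87 mg at 0 h, 0.0440% ± 0.00564 at 2 h and 0.0322% ± 0.00523 at 8 h (n = 3 each). In DAOY they took 0.0167% ± 0.00420, 0.0111% ± 0.00410 and 0.0168% ± 0.00248 at these times. Transcripts annotated as retained introns took 3.13% ± 0.139 at 0 h and 3.48% ± 0.305 at 8 h in DAOY, and 2.91% ± 0.0738 and 2.85% ± 0.132 in U87 mg. Their part in the mitochondrial shares was not tested, and in these bulk samples fewer cells of a kind cannot be told apart from less RNA per cell.

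Among the members, levels per length differed by more than an order of magnitude. In U87 mg the median TPM over 9 samples fell from 10942 for MT-ATP8, 9941 for MT-CO2, 9573 for MT-CO1 and 9039 for MT-ATP6 to 1901 for MT-ND6, 1812 for MT-ND5 and 711 for MT-RNR1. In DAOY it fell from 20266 for MT-CO2, 13708 for MT-CO1, 13407 for MT-ATP6 and 12634 for MT-ATP8 to 2643 for MT-ND6, 2566 for MT-ND1, 2369 for MT-ND5 and 1219 for MT-RNR1. Thus subunits of cytochrome c oxidase (MT-CO1 to MT-CO3) and ATP synthase (MT-ATP6 and MT-ATP8) led in both lines. MT-RNR1, the RNA of the small ribosomal subunit, was lowest in both medians. The libraries were selected by poly-A tail, so these levels also depend on how well each RNA was captured, which was not tested. Without DAOY 0 h replicate 0 the median of MT-ATP8 in DAOY was the third in the order and not the fourth. MT-RNR2, the RNA of the large subunit, ranged from 4739 to 10954 TPM in U87 mg and from 4106 to 15649 TPM in DAOY.

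Most neighbours in these orders did not differ beyond their spread. Of 14 neighbouring pairs, 7 kept their order in all 9 samples of U87 mg and 3 in all 9 of DAOY, and the ranges of neighbours did not overlap for 2 pairs in U87 mg and 1 in DAOY. In U87 mg MT-CO3 exceeded MT-ND4 in 4 of 9 samples, and in DAOY MT-CYB exceeded MT-ND2 in 5 of 9. MT-CO2, the copper-binding subunit that accepts electrons from cytochrome c, exceeded MT-CO1 in all 9 DAOY samples and in 6 of 9 U87 mg samples.

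**Figure D2:**
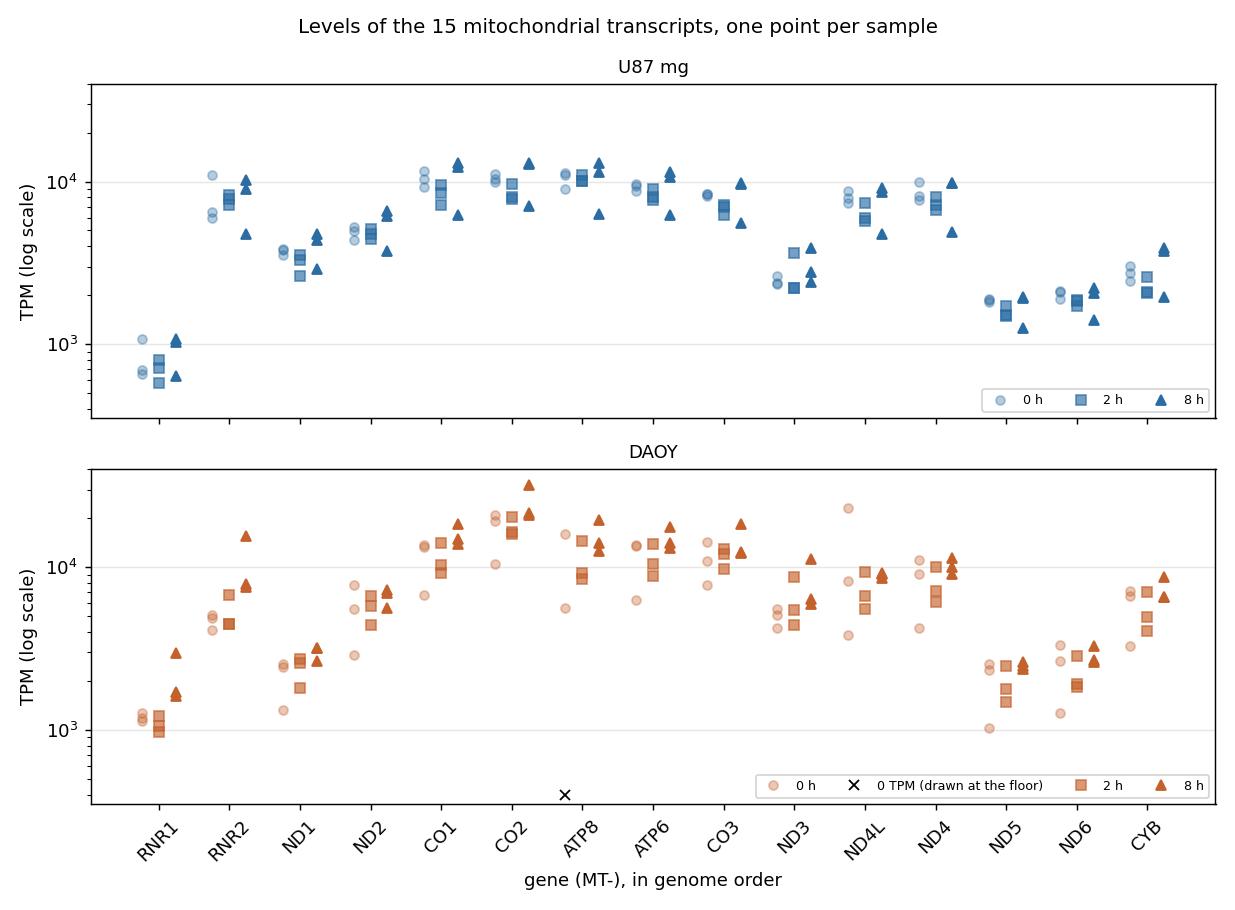
Level of each of the 15 members in TPM (log scale) in U87 mg (top) and DAOY (bottom), in genome order, with one point per sample and a marker for each exposure time. MT-CO2 reaches 31807 TPM in DAOY at 8 h, MT-RNR1 has the lowest medians in both lines, and MT-ATP8 in DAOY 0 h replicate 0, listed at 0, is drawn as a cross at the floor of the axis.

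The members rose and fell together across samples of a line. Over the 78 pairs of mRNAs the median Pearson correlation of log2 CPM (counts scaled to library size) across 9 samples was 0.89 in U87 mg (from 0.23 to 0.98) and 0.90 in DAOY (from -0.24 to 0.99). In DAOY without 0 h replicate 0 the median was 0.95 (8 samples, from 0.34 to 0.99). MT-ND3, a small subunit of complex I, had the lowest median correlation with the other mRNAs, 0.40 in U87 mg and 0.47 in DAOY without that library. The rRNAs were less tightly tied to the mRNAs, with medians of 0.74 (MT-RNR1) and 0.67 (MT-RNR2) in U87 mg and 0.48 and 0.56 in DAOY. All points share their library totals, so these correlations are descriptions of the libraries.

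The lines differed in the make-up of the mitochondrial mRNA, given here as each gene's percent of the counts of the 13 mRNAs, which removes the share of the library. MT-CYB, the cytochrome b subunit of complex III, held 7.09% to 8.94% in the 9 DAOY samples and 4.35% to 5.62% in the 9 U87 mg samples. Its means were 8.17% ± 0.504 and 4.92% ± 0.432, a ratio of 1.66. MT-ND1, a membrane subunit of complex I, went the other way with 2.43% to 3.35% in DAOY and 4.53% to 6.25% in U87 mg, a ratio of means of 0.505. Neither gene's ranges overlapped.

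MT-CO2 held 11.7% to 16.1% in DAOY and 8.96% to 10.9% in U87 mg, again without overlap. MT-ND4L, a small membrane subunit of complex I, held 1.22% to 1.64% in DAOY, with or without 0 h replicate 0, and 1.76% to 2.24% in U87 mg. MT-ATP8, an accessory subunit of ATP synthase, had a count of 0 in DAOY 0 h replicate 0. It held 0.775% to 0.965% in the other 8 DAOY samples and 0.9998% to 1.5003% in U87 mg. These percents are not corrected for length. On the TPM scale MT-ATP8 over MT-ATP6 overlapped, with 0.869 to 1.18 in those 8 DAOY samples and 0.958 to 1.37 in U87 mg. MT-ND4L over MT-ND4 did so too, with 0.811 to 0.943 and 0.830 to 0.972. The part of fragment length in the differences of MT-ATP8 and MT-ND4L was not tested. Thus 5 of 15 members (MT-CYB, MT-ND1, MT-CO2, MT-ND4L and MT-ATP8) were without overlap by count. Of the 16494 genes tested, 25.1% were so when scaled in the same way. For genes outside the mitochondrial genome this scaling brings in the spread of the mitochondrial share instead of removing it. The 25.1% is therefore not a like background, and no result is drawn from the count of 5. MT-CO1, the catalytic subunit of cytochrome c oxidase, held 24.1% ± 0.942 in DAOY and 24.8% ± 1.42 in U87 mg, and MT-ATP6, the proton channel subunit of ATP synthase, 8.74% ± 0.397 and 8.82% ± 0.379, so both overlapped widely.

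**Figure D3:**
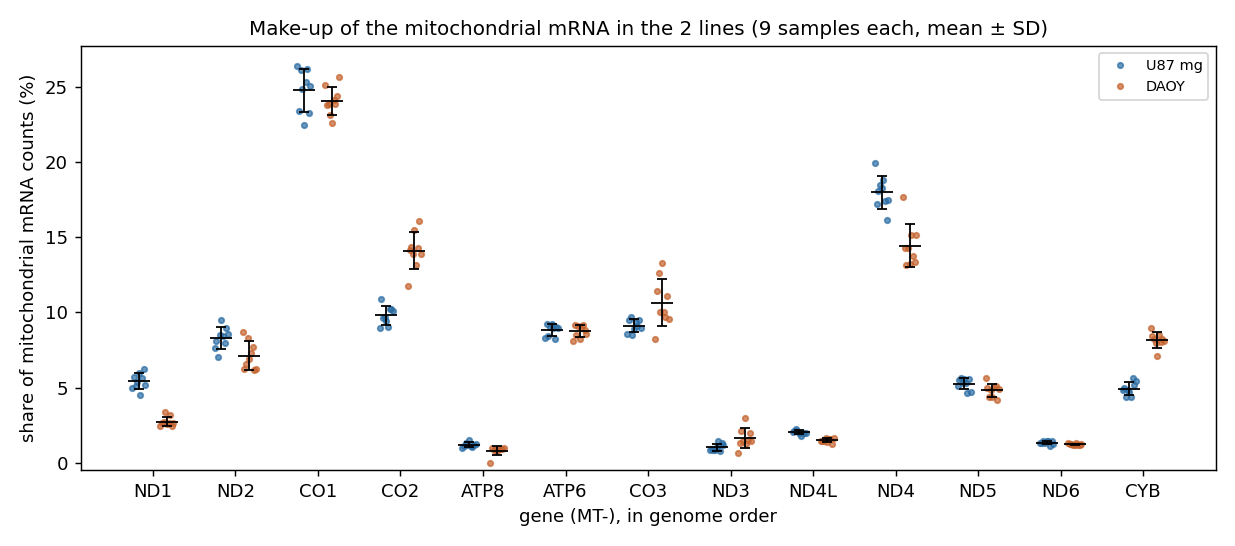
Percent of the counts of the 13 mitochondrial mRNAs held by each gene, in genome order, with 9 points per line (all exposure times) and their mean and SD. MT-CYB and MT-CO2 lie higher and MT-ND1, MT-ND4L and MT-ATP8 lower in DAOY without overlap, while MT-CO1 and MT-ATP6 overlap. The percents are not corrected for transcript length.

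Some ratios between members that lie close to each other in the genome also differed between the lines. For the mRNAs they use the same counts as the make-up above, so they are not separate evidence. The count of MT-CYB over that of MT-ND5, the large antiporter-like subunit of complex I, was 1.58 to 1.98 in DAOY and 0.777 to 1.21 in U87 mg. MT-ND1 over MT-ND2, another membrane subunit of complex I, was 0.279 to 0.425 in DAOY and 0.536 to 0.723 in U87 mg. Without DAOY 0 h replicate 0 its range in DAOY was 0.365 to 0.425. MT-RNR2 over MT-RNR1 was 6.04 to 9.67 in DAOY and 13.01 to 22.04 in U87 mg. In contrast, MT-ND6 over MT-ND5, which lie next to each other on opposite strands, was 0.228 to 0.279 in DAOY and 0.242 to 0.271 in U87 mg. Leaving out DAOY 0 h replicate 0 gave 0.238 to 0.279 in DAOY.

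Tested as levels rather than as make-up, 3 of 15 members differed between DAOY and U87 mg at 0 h, against 60.7% of all 16494 genes tested. FDR here is the Benjamini-Hochberg adjusted p of edgeR's quasi-likelihood test over all genes, and a gene was called at an FDR below 0.05. A share of 3 in 15 is below that background. In CPM, MT-CYB had 4603, 4277 and 2053 in DAOY at 0 h and 1964, 1788 and 1565 in U87 mg, so every DAOY sample was higher. The log2 fold change was 0.95 ± 0.32 (SE, FDR = 0.0148, 1.94-fold). It was 0.67 (FDR = 0.0878) without DAOY 0 h replicate 0 and 0.87 (FDR = 0.0561) without U87 mg 0 h replicate 2.

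MT-ND1 had 1253, 1333 and 677 CPM in DAOY at 0 h and 1999, 2055 and 1837 in U87 mg, and every DAOY sample was lower. Its log2 fold change was -0.94 ± 0.25 (SE, FDR = 0.00367), and it stayed below an FDR of 0.05 without any single sample (0.00192 to 0.0169). MT-RNR2 had 4873, 4464 and 3677 CPM in DAOY and 10155, 6005 and 5402 in U87 mg. Its log2 fold change was -0.83 ± 0.34 (SE, FDR = 0.0441), which became -0.47 (FDR = 0.248) without U87 mg 0 h replicate 0, the sample with 10155 CPM. The FDR was also above the threshold without DAOY 0 h replicate 1 (0.0808), without DAOY 0 h replicate 2 (0.119) and without U87 mg 2 h replicate 2 (0.0511). Of 11 alternative settings 4 kept the call, and the FDR over them reached 0.145. Other members passed when 1 sample was left out. MT-ND3 (0.73, FDR = 0.0476) and MT-ND4L (-0.72, FDR = 0.0482) did so without DAOY 0 h replicate 0, MT-CO2 (0.75, FDR = 0.0199) without DAOY 0 h replicate 2, and MT-RNR1 (0.72, FDR = 0.0338) without U87 mg 0 h replicate 0.

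The contrasts between lines at 2 h and 8 h were added after the data had been seen. At 2 h 4 members were higher in DAOY (background 60.6% of genes) and at 8 h 5 (background 61.1%). MT-CYB was called at both times, with log2 fold changes of 1.12 ± 0.32 (SE, FDR = 0.00553) and 1.09 ± 0.32 (FDR = 0.00641). MT-CO2 was also called at both, with 0.92 ± 0.27 (FDR = 0.00726) and 1.07 ± 0.27 (FDR = 0.00254), as was MT-ND3, with 1.06 ± 0.29 (FDR = 0.00435) and 1.20 ± 0.29 (FDR = 0.00167). These 3 genes kept their calls at 2 h and 8 h without any single sample.

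MT-CO3, a core subunit of cytochrome c oxidase, was called with 0.64 ± 0.25 (SE, FDR = 0.0340) at 2 h and 0.68 ± 0.25 (FDR = 0.0250) at 8 h. Its call at 2 h was lost without DAOY 2 h replicate 1 (FDR = 0.0700) or replicate 2 (0.112), and without replicates 0, 1 or 2 of U87 mg at 2 h (0.0604, 0.104 and 0.0664). At 8 h it was lost without DAOY 8 h replicate 1 (0.159) or U87 mg 8 h replicate 1 (0.133). MT-RNR1 was called at 8 h alone, with 1.11 ± 0.27 (FDR = 0.00192). MT-ND1 had log2 fold changes of -0.55 (FDR = 0.0668) at 2 h and -0.52 (FDR = 0.0808) at 8 h. It passed the threshold at both times without DAOY 0 h replicate 2 (FDR = 0.0267 and 0.0276) and without U87 mg 8 h replicate 1 (0.0462 and 0.0182). MT-RNR2 had -0.70 (FDR = 0.0854) at 2 h, and passed without DAOY 2 h replicate 1 (0.0494) or DAOY 8 h replicate 1 (0.0467). At 8 h its value was 0.29 (FDR = 0.468).

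By TPM, MT-ND3 was the only member whose samples did not overlap between the lines (4231 to 11163 in DAOY and 2219 to 3917 in U87 mg), against 36% of the genes tested. In CPM, which is not corrected for length, DAOY 0 h replicate 0 had 339 and lay within the 282 to 515 of U87 mg, and the other 8 DAOY samples ranged from 530 to 1374. This is the library quantified with the longer fragment length.

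Turning to exposure, 0 of 15 members passed the threshold in U87 mg at 2 h against 0 h by edgeR, where 0% of 14120 genes did. No member had an unadjusted p under 0.05 in this comparison, although 1239 of all genes did, and each alternative tool and setting also called 0 members. Of the 13 mRNAs, 12 had a log2 fold change below 0, with a median of -0.27 (from -0.40 to 0.07, median SE 0.22) beside -0.02 over all genes. The lowest value was that of MT-ND4L (-0.40 ± 0.23, FDR = 0.496). The mRNAs rose and fell together across samples, so a sign they share, here and below, is not separate evidence from each gene. As a share of the library, the 13 mRNAs took 3.46%, 2.77% and 2.90% at 2 h, all below the 4.04%, 3.60% and 3.60% at 0 h (exact permutation test, n = 3 per group, p = 0.10, the smallest possible).

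At 8 h against 0 h in U87 mg, 0 of 15 members were called by edgeR or DESeq2, against 1.72% of genes by edgeR, and 0 members had an unadjusted p under 0.05. The mRNAs had a median log2 fold change of 0.12 (from -0.03 to 0.41, median SE 0.22). The largest was that of MT-ND3, 0.41 ± 0.21 (FDR = 0.363), with 372, 315 and 515 CPM at 8 h and 336, 323 and 309 at 0 h. From 2 h to 8 h all 13 mRNAs had a positive log2 fold change (median 0.34, beside 0.04 over all genes). By edgeR 0 members were called, against 0.822% of genes, while 3 had an unadjusted p under 0.05. MT-CYB had the largest (0.62 ± 0.25, FDR = 0.196).

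In DAOY at 2 h against 0 h, 0 of 15 members were called by edgeR or DESeq2, against 0% of 15409 genes (424 genes had an unadjusted p under 0.05, and 0 members did). The mRNAs had a median log2 fold change of 0.04, with 8 above and 5 below 0. MT-ATP8 had the largest value, 0.74 ± 1.13, and without DAOY 0 h replicate 0 it was 0.15 ± 0.33. MT-ND3 had 0.60 ± 0.32 (FDR = 0.999) with that library and 0.40 ± 0.33 without it.

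At 8 h against 0 h in DAOY, 1 of 15 members rose, against 5.82% of genes called in either direction. MT-RNR2 had 6876, 14418 and 7205 CPM at 8 h, and 4873, 4464 and 3677 at 0 h. Every sample at 8 h was higher, and replicate 1 of 8 h stood far above the others. The log2 fold change was 1.24 ± 0.32 (SE, 2.36-fold, FDR = 0.0481). The FDR rose above 0.05 when any one of the 9 DAOY samples was left out, to between 0.0532 and 0.142, and without DAOY 8 h replicate 1 the log2 fold change fell to 0.78 ± 0.23.

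MT-RNR1 had 885, 1558 and 841 CPM at 8 h and 652, 593 and 609 at 0 h, again without overlap and with replicate 1 the highest. Its log2 fold change of 0.93 ± 0.25 had an FDR of 0.0518. MT-ND3 had 801, 1374 and 748 CPM at 8 h and 339, 668 and 530 at 0 h. Its log2 fold change was 1.05 ± 0.32 (FDR = 0.0815), and it was 0.86 ± 0.34 (FDR = 0.157) without DAOY 0 h replicate 0. MT-CO2 had 7419, 10989 and 7251 CPM at 8 h and 6039, 7185 and 3563 at 0 h (0.72 ± 0.28, FDR = 0.161). DESeq2 called MT-RNR2 (adjusted p = 0.00181), MT-RNR1 (0.00607) and MT-ND3 (0.0127) in this comparison, and limma on log2(TPM + 1) called 0 members.

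All 13 mRNAs had a positive log2 fold change at 8 h in DAOY, with a median of 0.55 (from 0.38 to 1.37, median SE 0.31) beside -0.01 over all genes tested. The 7 members of complex I ranged from 0.38 ± 0.33 (MT-ND2) and 0.38 ± 0.35 (MT-ND4) through 0.39 (MT-ND5), 0.46 (MT-ND6), 0.55 (MT-ND4L) and 0.62 (MT-ND1) to the 1.05 of MT-ND3. MT-CYB of complex III had 0.45 ± 0.32, MT-CO1 and MT-CO3 of complex IV 0.55 ± 0.31 and 0.53 ± 0.26, and MT-ATP6 of ATP synthase 0.58 ± 0.30. None of these passed the threshold. The value for MT-ATP8, 1.37 ± 1.14, was 0.79 ± 0.34 without DAOY 0 h replicate 0, and that for MT-ND4L was 0.77 without it and -0.01 by limma on log2(TPM + 1). In CPM, 6 members were without overlap and higher at 8 h (MT-RNR1, MT-RNR2, MT-ND1, MT-CO2, MT-ND3 and MT-ND4L), against 26.5% of genes without overlap in either direction.

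From 2 h to 8 h in DAOY, 0 members were called by edgeR, against 1.58% of genes, and 2 had an unadjusted p under 0.05, MT-RNR1 (1.09 ± 0.25, FDR = 0.0537) and MT-RNR2 (1.14 ± 0.32, FDR = 0.0895). MT-RNR1 was called without DAOY 0 h replicate 0 (FDR = 0.0400). DESeq2 called both rRNAs (adjusted p = 0.00155 and 0.00813).

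**Figure D4:**
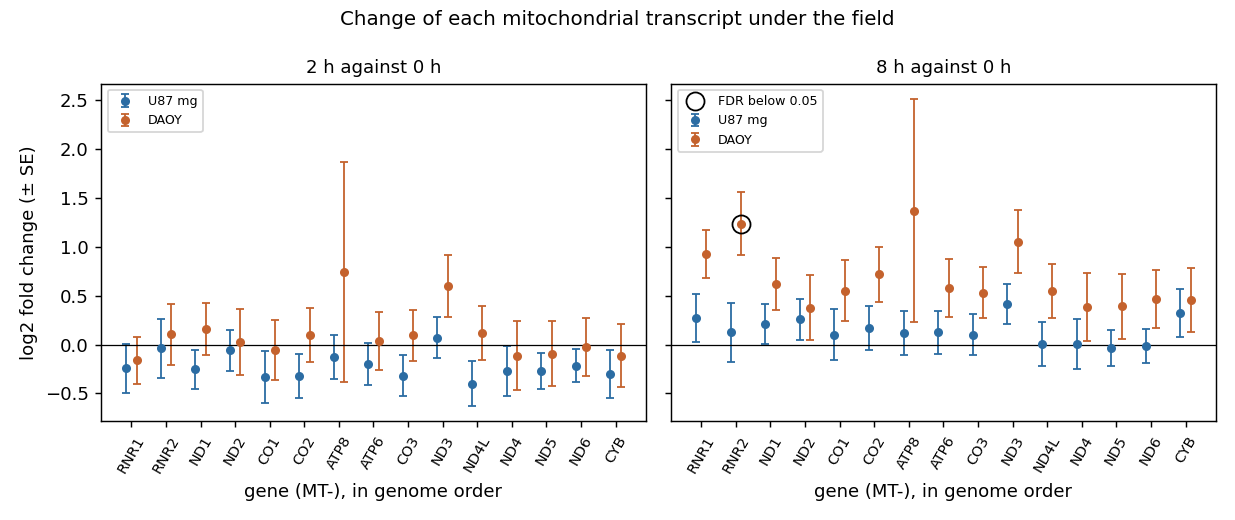
Log2 fold change with its SE for each member at 2 h (left) and 8 h (right) against 0 h in U87 mg and DAOY, in genome order, with a ring where the FDR was below 0.05. At 8 h the DAOY values lie between 0.38 and 1.37 and only MT-RNR2 is ringed, while the U87 mg values lie between -0.03 and 0.41.

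The changes were not shown to differ between the lines. Tested as an interaction by edgeR, 0 of 15 members passed at 2 h (background 0% of genes, 1058 with an unadjusted p under 0.05, 0 of them members) and 0 at 8 h (background 0.0121% of genes, 1464 with an unadjusted p under 0.05, 1 of them a member). MT-RNR2 was that member, with an 8 h change 1.12 ± 0.48 log2 units higher in DAOY (FDR = 0.498). DESeq2 called 0 members in both interaction tests. For the 13 mRNAs the difference was positive throughout at 8 h, with a median of 0.46 and a median SE of 0.41. It was also positive throughout at 2 h, with a median of 0.26 and a median SE of 0.41. Both differences use the same 0 h samples.

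The make-up of the mitochondrial mRNA was also compared between times, and the shares of genes given beside it were scaled in the same way. For genes outside the mitochondrial genome this scaling brings in any difference in the mitochondrial share. The share of the 13 mRNAs did not overlap between 2 h and 0 h in U87 mg, nor between 8 h and 0 h in DAOY. The 28.5% and 25.7% below come from these comparisons and are not a like background for the members. In U87 mg MT-ND2 held 8.51%, 9.47% and 8.45% at 2 h and 7.61%, 8.12% and 7.07% at 0 h, the 1 member without overlap at 2 h, against 28.5% of genes. In DAOY 0 members were without overlap at 2 h, against 2.15% of genes. In U87 mg MT-CYB held 5.62%, 5.17% and 5.43% of the mRNA counts at 8 h and 4.86%, 4.96% and 4.35% at 0 h, without overlap. MT-ND4L held 2.01%, 2.01% and 1.95% at 8 h and 2.07%, 2.12% and 2.24% at 0 h. These 2 of 15 members were without overlap, against 5.15% of genes scaled in the same way, while in DAOY 1 member was, against 25.7%. That member was MT-CYB, with 8.02%, 8.25% and 8.097% at 8 h and 8.94%, 8.41% and 8.25% at 0 h, and the nearest samples of the groups were almost equal. With 3 samples in each group an exact test of one gene cannot go below p = 0.10.

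The short members stood apart in the library quantified with the longer fragment length, whose part in their values was not tested. MT-ATP8 had an estimated count of 0 in DAOY 0 h replicate 0 and counts of 1912 to 7452 in the other 17 libraries. Counting error alone would allow at most 3 counts at an estimate of 0. That bound does not cover how the library was quantified, so it is no upper limit on the level of MT-ATP8. MT-ATP6, encoded on the same message, had 38483 counts in DAOY 0 h replicate 0. MT-ATP8 over MT-ATP6 on the TPM scale was 0.958 to 1.37 in U87 mg and 0.869 to 1.18 in the other 8 DAOY samples. MT-ND4L over MT-ND4, the other pair on one message, was 0.830 to 0.972 in U87 mg and 0.811 to 0.943 in those 8 DAOY samples, and 2.101 in DAOY 0 h replicate 0. There the count of MT-ND4L, 6732, lay within the 3325 to 13675 of the other libraries, and its TPM of 23265 was far above their 3834 to 9330.

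**Figure D5:**
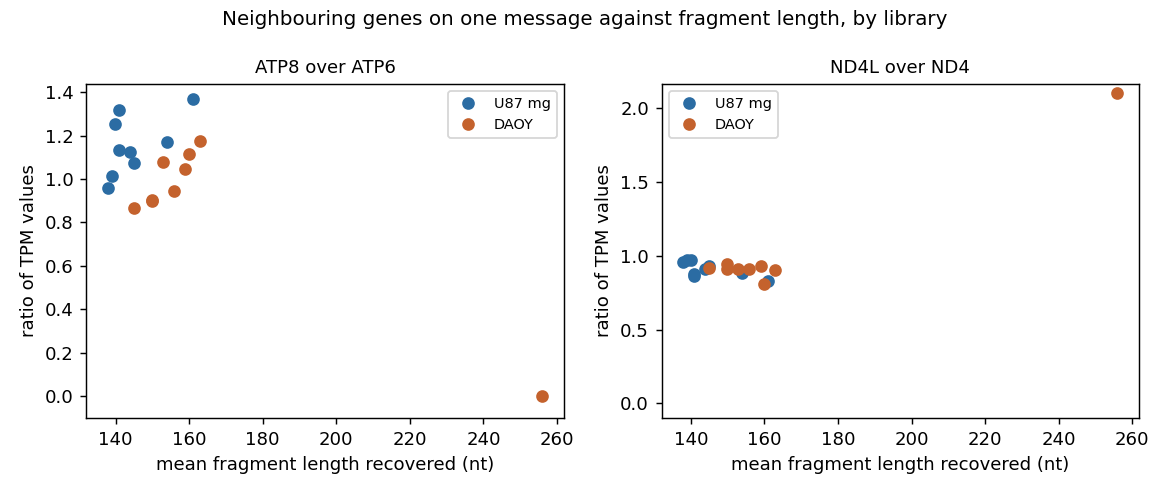
Ratio of TPM values of MT-ATP8 to MT-ATP6 (left) and of MT-ND4L to MT-ND4 (right) against the mean fragment length recovered for each library (nt), one point per library. DAOY 0 h replicate 0, at 255.95 nt, has a ratio of 0 on the left and 2.101 on the right, and the other 17 libraries lie between 138 and 163 nt with ratios from 0.811 to 1.37.

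Parts of the mitochondrial genome have been copied into nuclear DNA, and Kallisto divides a read that fits a member and such a copy between them. The share of a member's 31-base words that also occur in nuclear transcripts of GENCODE 29 was 66.7% for MT-CO1, 62.8% for MT-ATP6, 56.9% for MT-ND2 and 50.5% for MT-CO2, and 0% for MT-RNR1, 3.48% for MT-ND3 and 4.95% for MT-CYB. For MT-ND1 it was 28.2% and for MT-RNR2 32.4%. Of the 89 copies in the table, 5 had a mean estimated count of at least 100, and all copies together took 0.0627% to 0.237% of a library's counts.

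Most of these counts fell on a block on the plus strand of chromosome 1 (GRCh38). Each copy is given as a percent of the summed counts of the pair, that is of the copy and its member. MTATP6P1 (1:633696-634376) took 16.2% to 20.7% of its pair with MT-ATP6 in U87 mg. It took 16.8% to 18.8% in 8 DAOY samples and 29.6% in DAOY 0 h replicate 0. MTND2P28 (1:629640-630683) took 6.64% to 8.08% of its pair in U87 mg and 5.71% to 6.68% in DAOY. MTND1P23 (1:629062-629433), a copy of 372 nt, had 39.8 to 119 counts in U87 mg, 7.98 to 38.1 in 8 DAOY samples and 1204 in DAOY 0 h replicate 0. Adding the copies to their members left the calls between the lines at 0 h as they were, with MT-ND1 at -0.88 (FDR = 0.00719).

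MTCO1P12 (1:631074-632616) separated the lines, with 832 to 2134 counts in DAOY and 3.44 to 33.2 in U87 mg. It took 1.12% to 1.70% of the counts of its pair with MT-CO1 in DAOY and 0.00552% to 0.0187% in U87 mg. MTND4P12, on the minus strand of chromosome 5 (5:134926660-134928036), did not, with 0.491% to 0.805% of its pair in DAOY and 0.383% to 0.706% in U87 mg. What divides the lines at MTCO1P12 was not tested.

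The nuclear genes that serve the mitochondrial genome were counted from fixed lists. Of 18 genes of mitochondrial transcription and replication, 1 rose and 2 fell in DAOY at 8 h against 0 h (3 of 18, where 5.82% of all genes were called), and 0 were called in U87 mg at either time or in DAOY at 2 h. POLRMT, the mitochondrial RNA polymerase, had a log2 fold change of 0.03 ± 0.29 in DAOY and -0.24 ± 0.31 in U87 mg at 8 h, and TFAM, which packages mitochondrial DNA and starts its transcription, -0.05 ± 0.15 and 0.21 ± 0.13. None of these passed the threshold. TFB1M, a methyltransferase that modifies the small ribosomal RNA, fell by 1.12 ± 0.23 (FDR = 0.0236) in DAOY, from 20.4 ± 2.70 TPM to 9.37 ± 2.68 (SD, n = 3). PRIMPOL, a primase and polymerase, fell by 1.41 ± 0.31 (FDR = 0.0280), and POLG2, the accessory subunit of the mitochondrial DNA polymerase, rose by 0.83 ± 0.21 (FDR = 0.0444).

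Of 26 genes of mitochondrial RNA processing, stability and decay, 3 fell and 0 rose in DAOY at 8 h, against the same 5.82% of all genes, and 1 fell in U87 mg, against 1.72%. PTCD2, a pentatricopeptide repeat protein with a role in the processing of the cytochrome b message, fell in both lines. Its level was 14.4 ± 0.813 TPM at 0 h and 3.34 ± 1.04 at 8 h in DAOY (log2 fold change -1.80 ± 0.19, FDR = 0.00429), and 17.3 ± 2.71 and 8.48 ± 1.67 TPM in U87 mg (-0.83 ± 0.15, FDR = 0.0236). The other genes that fell in DAOY were TFB1M, which is on both lists, and ANGEL2 (-0.87 ± 0.17, FDR = 0.0207). LRPPRC, which stabilises mitochondrial mRNAs, had 0.10 ± 0.16 in DAOY and 0.18 ± 0.14 in U87 mg. PNPT1, a subunit of the complex that degrades mitochondrial RNA, had -0.42 ± 0.22 and 0.05 ± 0.13, and none of these passed the threshold.

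Nuclear genes for the same complexes and for the mitochondrial ribosome were counted in the same way. Of 77 nuclear subunits of the respiratory chain and ATP synthase, 0 were called in any comparison of times by edgeR, and their median log2 fold change at 8 h was -0.12 in DAOY and 0.05 in U87 mg. Of 78 mitochondrial ribosomal protein genes, 1 rose and 5 fell in DAOY at 8 h (background 5.82%, median -0.29) and 0 were called in U87 mg (median 0.00). MRPS6 rose by 1.35 ± 0.23 (FDR = 0.0134), and MRPL15 (-1.24 ± 0.19, FDR = 0.0102) and MRPL1 (-0.999 ± 0.20, FDR = 0.0234) fell, each a ribosomal subunit protein. Of 10 regulators of mitochondrial biogenesis, 0 were called in any comparison of times.

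Between the lines at 0 h, where 60.7% of all genes were called, genes of these lists were called in both directions, in shares at or below that background. Of the 10 biogenesis regulators 3 were higher and 3 lower in DAOY, among them the coactivators PPARGC1A (2.34 ± 0.23, FDR = 1.04e-07) and PPARGC1B (2.23 ± 0.26, FDR = 1.29e-06), which were higher, and MYC (-1.31 ± 0.17, FDR = 4.34e-06), which was lower. PPARGC1A was low in both, at 6.82 ± 2.83 TPM in DAOY and 1.78 ± 1.20 TPM in U87 mg. Of the 18 transcription and replication genes 6 were higher and 3 lower, with TFB2M, the transcription factor that melts the promoter, at 1.59 ± 0.17 (FDR = 4.47e-07). Of the 26 processing genes 8 were higher and 4 lower, and of the 77 nuclear subunits 14 were higher and 19 lower. POLRMT (-0.02 ± 0.32), TFAM (0.17 ± 0.15), LRPPRC (0.31 ± 0.16) and PNPT1 (0.41 ± 0.19) did not pass.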

How the data were processed

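RNA was sequenced in 18 samples of U87 mg and DAOY. The authors trimmed single-end reads, quantified GENCODE 24 transcripts with kallisto 0.43.0 and deposited estimated counts and TPM per transcript and sample; the labels give GRCh38.p5. The table's 24 columns of the authors' own p-values, q-values and fold changes were not used. All per-sample columns were matched by name.

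Estimated counts were summed per gene, rounded, filtered with filterByExpr, scaled by TMM and tested with edgeR 4.0.16 (glmQLFit and glmQLFTest, R 4.3.3), in fits of 9 samples per line or, for contrasts between lines, of all 18. Benjamini-Hochberg FDR was taken over all genes, with a threshold of 0.05. DESeq2 1.42.0, limma 3.58.1 and other settings were alternatives. Shares were compared by exact permutation over samples (scipy 1.17.1). Fragment lengths came from count over TPM against transcript length (mRNAs of 1000 to 5000 nt with at least 50 counts). Sequences and coordinates came from GENCODE 29, matched by transcript identifier for all 15 members.

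Totals per sample were 8341976 to 15610886, and counts carry no molecular identifiers, so floors cover counting error only. Members were taken by chromosome and all were named or counted. Copies were named from a mean count of 100, and from each list up to 4 called genes with the largest change per comparison could be named, plus POLRMT, TFAM, LRPPRC and PNPT1. Members and lists were chosen with earlier results of these data known. Deviations of same-numbered replicates correlated above 0.1 in all 3 pairs only between 2 h and 8 h in U87 mg (0.145 to 0.263), a hint from the data, not from the labels. Scripts were tested on simulated data.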

Additional observations from a re-analysis of the deposited data

How the results depend on the processing

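The count of members called depended on the setting. For DAOY at 8 h against 0 h, where 1 member was called, it was 3 with DESeq2 and with all 18 samples in one fit, 2 when genes under 10 counts in any sample were dropped and with library totals without TMM, 4 without a filter, and 0 with limma on log2(TPM + 1) or log2(TPM + 0.1), with the 6 samples compared alone, on single transcripts, and without any one sample (range 0 to 0). For DAOY at 8 h against 2 h, with 0 called, it was 2 with DESeq2 and without a filter, 1 with all 18 samples, with the same minimum of 10 counts and with library totals, and 0 to 1 without one sample. Without a filter it was 2 for U87 mg at 8 h against 2 h, and 1 for the difference of the 8 h changes between the lines. Between the lines at 0 h it was 7 without a filter and 0 with a further 2-fold threshold, and 2 to 4 without one sample. At 2 h it was 7 without a filter and with the 6 samples alone, 2 with the 2-fold threshold, and 3 to 5 without one sample; at 8 h it was 10 without a filter, and 4 to 6 without one sample. The cause was not tested.

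The difference in mitochondrial share without one sample ran from -0.456 to 0.949 points for U87 mg at 8 h, from -0.857 to 0.535 for DAOY at 2 h, from 1.17 to 2.56 for DAOY at 8 h, from -0.963 to -0.441 for U87 mg at 2 h, and from 0.787 to 1.48 between the lines. With U87 mg at 8 h the sign turned without either 8 h replicate 0 or 2 or either 0 h replicate 1 or 2, and with DAOY at 2 h without 2 h replicate 2 or 0 h replicate 2. Of 4027 values of a member under an alternative, 36 lost a call, 57 gained one and 0 called values changed sign, and 187 values that were called in neither setting changed sign.

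Over all times, correlations of samples with the same replicate number ran from -0.175 to 0.263 in U87 mg and from -0.201 to 0.437 in DAOY, so the number was not taken as a pairing of all 3 times. Between 2 h and 8 h in U87 mg the 3 same-number pairs had 0.145 to 0.263 and the 6 others -0.172 to -0.00325, and there the blocked fit called 0 members, as did the fit without the block. With the replicate number as a block, 1 member was called for DAOY at 8 h, as without it, but it was MT-ND3 (1.02, FDR = 0.0275) and not MT-RNR2. Between the lines at 0 h the block gave 2 calls, MT-CYB (0.94, FDR = 0.0179) and MT-ND1 (-0.96, FDR = 0.00288).

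With 3 samples in each group, changes of the size seen for the mRNAs (median SE 0.22 in U87 mg and 0.31 in DAOY on the log2 scale) were not called, and which changes this design could detect was not tested.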
